A study of Mus musculus with 8 samples.

Results

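The report concerns 10 mouse genes that mark or specify endothelial cells, the lining of blood vessels: the transcription factor genes Erg, Fli1, Sox17, Sox18 and Sox7, the receptor genes Tie1 and Kdr, the adhesion genes Cdh5 and Pecam1, and Vwf, which encodes a secreted clotting protein. They were taken as a fixed list by their positions in the GENCODE vM1 annotation of the mouse genome build mm9, and they are 10 of its 22238 protein-coding genes. Open chromatin had been mapped by ATAC-seq, where the transposase Tn5 inserts sequencing adapters into accessible DNA, in 7 libraries titled ATAC1 to ATAC7, with an Input library as the control. All were labelled as wild-type bone marrow stromal cells of C57BL/6J mice at 6 weeks post natal, with no treatment given. Per the study's methods, the cells had been sorted into populations by surface proteins, with antibodies to Sca-1, PDGFR-alpha, CD24, CD39 and CD54 among those used. Cells that carried CD31, CD45 or Ter119 had been removed, and CD31 is the protein that Pecam1 encodes. No label ties a title to one of the sorted populations, and the titles are used here as names. Each title had 1 library, so no value has a replicate and no difference between libraries was tested. The authors' peak lists held 15188 to 32280 peaks, called separately in each library, and the lowest ranking statistic of a listed peak was 7.5 to 8.5 in ATAC1, ATAC2, ATAC5 and ATAC6 and 10.5 in ATAC3, ATAC4 and ATAC7.

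Erg and Fli1 are factors of the ETS family and Sox7, Sox17 and Sox18 are the SOXF group of SOX factors, and both families bind promoters and enhancers of endothelial genes. Kdr is the main receptor for VEGF, Tie1 is an orphan receptor that acts together with the angiopoietin receptor Tek, Cdh5 and Pecam1 hold endothelial junctions together, and von Willebrand factor is made by endothelial cells and megakaryocytes. Erg and Fli1 are also active in blood stem cells and megakaryocytes, and Pecam1 is found on several kinds of blood cell. Promoters fall broadly into CpG-rich ones, which are often open in many cell types, and CpG-poor ones, which tend to be open where the gene is used.

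The sequences before the first coding start sites of 5 of the genes are shown as examples of CpG-rich windows with a start-site peak and CpG-poor windows without one. Pecam1 and Vwf, which are not shown, have CpG-poor coding starts and yet had start-site peaks, described below. Each line gives 250 bases of mm9, read in the direction of the gene, that end at the base before the start site, and capitals mark every CpG. The first 3 belong to genes whose windows were rich in CpG.
Erg, chr16:95808201-95808450, minus strand: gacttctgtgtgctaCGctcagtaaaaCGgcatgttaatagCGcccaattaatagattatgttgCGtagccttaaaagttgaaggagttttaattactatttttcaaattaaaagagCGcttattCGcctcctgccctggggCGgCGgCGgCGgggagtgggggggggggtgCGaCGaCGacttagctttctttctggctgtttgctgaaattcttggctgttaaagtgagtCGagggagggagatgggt
Sox7, chr14:64562261-64562510, plus strand: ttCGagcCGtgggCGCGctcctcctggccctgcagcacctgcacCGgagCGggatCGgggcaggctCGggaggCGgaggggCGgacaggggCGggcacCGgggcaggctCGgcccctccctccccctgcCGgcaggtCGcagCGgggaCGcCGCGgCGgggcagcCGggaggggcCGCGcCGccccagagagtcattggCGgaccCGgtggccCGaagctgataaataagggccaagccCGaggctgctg
Kdr, chr5:76374484-76374733, minus strand: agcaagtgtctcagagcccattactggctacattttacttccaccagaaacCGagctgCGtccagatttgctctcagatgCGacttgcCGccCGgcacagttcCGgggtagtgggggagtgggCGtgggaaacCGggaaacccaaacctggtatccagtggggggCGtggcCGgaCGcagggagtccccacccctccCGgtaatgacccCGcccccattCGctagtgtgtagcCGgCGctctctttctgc
The next 2 belong to genes with CpG-poor windows and no start-site peak.
Sox17, chr1:4486495-4486744, minus strand: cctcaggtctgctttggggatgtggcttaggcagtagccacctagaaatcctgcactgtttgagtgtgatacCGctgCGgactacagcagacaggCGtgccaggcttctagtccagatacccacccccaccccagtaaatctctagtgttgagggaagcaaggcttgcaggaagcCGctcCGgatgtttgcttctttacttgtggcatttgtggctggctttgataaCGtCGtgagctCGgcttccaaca
Tie1, chr4:118162667-118162916, minus strand: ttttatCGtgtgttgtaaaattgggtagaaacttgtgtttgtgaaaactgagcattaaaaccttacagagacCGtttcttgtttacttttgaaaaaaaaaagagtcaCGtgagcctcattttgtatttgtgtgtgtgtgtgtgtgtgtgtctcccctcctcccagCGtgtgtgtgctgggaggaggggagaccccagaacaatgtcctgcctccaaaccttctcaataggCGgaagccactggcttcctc
These stretches held 14 CpG in Erg, 28 in Sox7 and 16 in Kdr. They held 8 in Sox17 and 5 in Tie1.

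At least 1 peak centred within 1000 bases of an annotated start site was called for 6 of the 10 genes, Erg, Fli1, Sox7, Kdr, Pecam1 and Vwf, against 56.8% of all protein-coding genes. None was called in any library for Sox17, Sox18, Tie1 and Cdh5. No gene of the 10 had a start-site peak in all 7 libraries, whereas 36.9% of all protein-coding genes did. ATAC5 had such a peak at 6 of the 10 genes, where the share of all protein-coding genes was 52.8%. ATAC6 had it at Erg, Fli1 and Vwf, 3 genes, beside 51.7% of all genes. ATAC1 had it at Fli1 and Vwf beside 49.1%, and ATAC2 at the same 2 genes beside 50.3%. ATAC4 had it at Vwf alone beside 43.8%. ATAC3 and ATAC7 had it at 0 of the 10 genes, beside 43.6% and 42.1% of all genes. The counts of the 10 genes thus lay under the background in 6 libraries, while in ATAC5 60% of the list stood beside 52.8%. The ATAC5 count fell to 5 of 10 with a window of 500 bases, with protein-coding transcripts only or with each peak given to the nearest start, and to 4 with peaks of fold at least 5, and the background was not recomputed for these settings, so no excess is read from ATAC5. These are bulk populations, in which a site open in few cells and a site weakly open in many cells cannot be told apart, and a site without a listed peak may still be open below the authors' threshold. When each list was shortened to its 15188 best-ranked peaks, the length of the shortest list, ATAC5 kept 1 of the 10 genes and ATAC6 kept 1, Erg in both, ATAC1 and ATAC4 each kept Vwf, and ATAC2 kept 0, with the background again not recomputed.

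**Figure D1:**
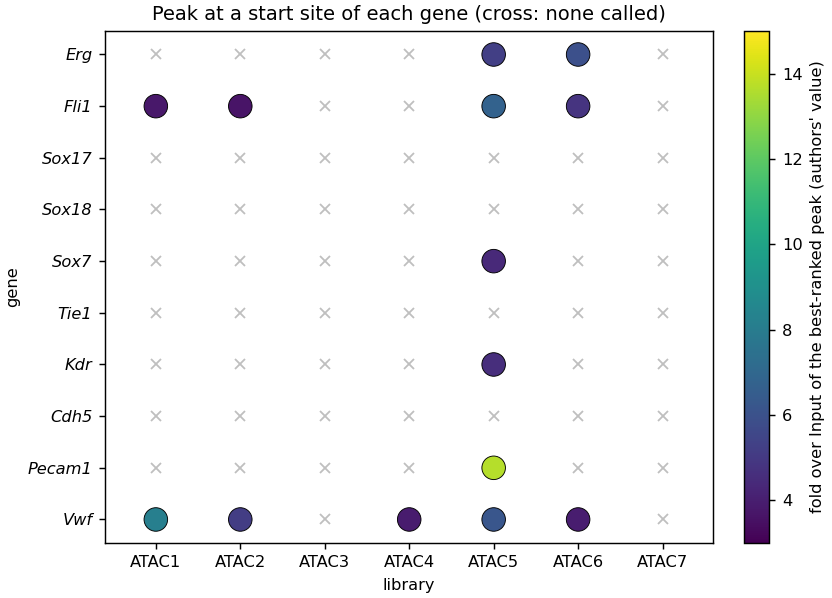
Start-site peaks of the 10 genes (rows) in the 7 libraries (columns). A circle is the best-ranked peak centred within 1000 bases of a start site, coloured by its fold over Input as the authors' peak caller gave it, and a cross means that none was called. ATAC5 has circles for 6 genes, and ATAC3 and ATAC7 have none.

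The CpG ratio, the observed number of CpG over that expected from the base composition, was computed from 250 bases before to 50 after each start of a protein-coding transcript, and a ratio of at least 0.6 was called high. The 10 genes had 25 such starts. Of these, 5 had a high ratio, 0.94 at the first start of Erg, 0.86 at Fli1, 0.78 at Sox7 and 0.72 and 0.66 at the pair of Kdr starts 30 bases apart, and all 5 had a peak in at least 1 library. This count depends on the settings, since the Erg start had no peak with a window of 500 bases and the Sox7 start and both Kdr starts had none of fold at least 5. Among all protein-coding starts of high ratio the share with a peak was 89%. The other 20 starts had ratios from 0.12 to 0.50, and 1 of the 20, a far upstream start of Pecam1, had a peak, against 25.5% of all starts of low ratio. Several of these starts lie within a few bases of each other and share a window. The median ratio was 0.28 over the 25 starts and 0.55 over all protein-coding starts. By library, ATAC5 had a peak at all 5 of the high-ratio starts, with the pair of Kdr starts sharing 1 peak, beside 84.5% of high-ratio starts overall. ATAC6 had it at 2 (background 84.2%), and ATAC1 and ATAC2 at 1 each (80.6% and 81.5%). ATAC3, ATAC4 and ATAC7 had it at 0 of 5, beside 75.3%, 75.7% and 72.6%. These shares are descriptions of a short list and no test was made of them.

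**Figure D2:**
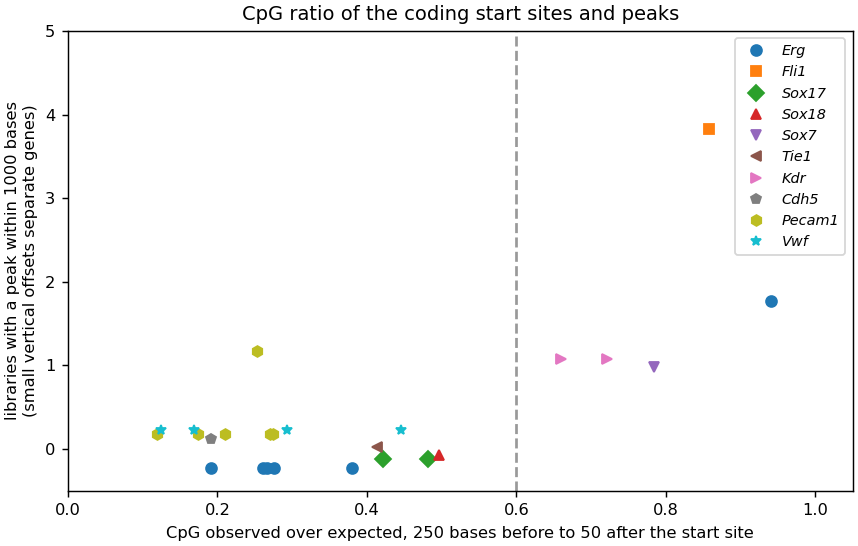
CpG ratio of the 25 protein-coding start sites of the 10 genes (horizontal axis) and the number of libraries with a peak within 1000 bases (vertical axis, with small offsets that separate genes). The dashed line marks the ratio of 0.6. The 5 starts to its right have a peak in 1 to 4 libraries, and 19 of the 20 to its left have none.

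Erg lies at chr16:95580776-95808200 on the minus strand, and its start-site peak was called in ATAC5 and ATAC6. The peak lay in an intron, with its centre 899 bases downstream of the start in ATAC5 and 958 bases downstream in ATAC6, close to the limit of 1000 bases. In ATAC5 the region held 98 library reads and 32 Input reads, a fold of 5.24 after scaling (95% counting interval 3.49 to 8.08), at rank 14578 of 31479. In ATAC6 it held 124 and 33 reads, a fold of 5.91 (4.002 to 8.97), at rank 10883 of 28969. The intervals of both libraries overlap, but both folds use nearly the same Input reads and no difference in strength was tested. No peak was called at the other 5 coding starts of Erg, which lie inside the gene and have CpG ratios of 0.19 to 0.38.

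Fli1, at chr9:32229793-32348974 on the minus strand, had peaks at its start in ATAC1, ATAC2, ATAC5 and ATAC6. They numbered 11 in all and merged into 1 element at chr9:32347923-32349845, which spans the start and bases on both sides of it. ATAC1 had 3 of the peaks with folds of 3.21 to 3.76, ATAC2 had 2 with folds of 3.64 and 5.64, ATAC5 had 2 with folds of 5.99 and 6.73, and ATAC6 had 4 with folds of 4.22 to 5.73. All 11 lay below the median fold of their library, which was 7.89 in ATAC1, 9.27 in ATAC2, 10.9 in ATAC5 and 10.1 in ATAC6. The best-covered peak of ATAC5 held 217 library reads with 62 of Input, and that of ATAC1 held 202 with 66. Their reads were counted over 825 and 817 bases. Another Fli1 peak of ATAC1 held 11 Input reads over 89 bases, so raw Input counts cannot be compared between these peaks. The median Input reads per peak were 23 in ATAC5 and 26 in ATAC1, over regions of differing width. The outer regions in which reads were counted may overlap between neighbouring peaks, so the reads were not added up.

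Among the SOXF genes, Sox7 (chr14:64562511-64569569, plus strand) had a start-site peak in ATAC5, centred 138 bases before the start. It held 90 library reads and 35 Input reads, a fold of 4.403 (2.95 to 6.71), at rank 23313 of the list. Sox17 (chr1:4481009-4486494, minus strand) had no peak in or within 50 kb of the gene in any library. The nearest peak to its first start lay 75373 bases away in ATAC1, 75381 in ATAC4 and 75227 in ATAC5. In the other 4 libraries it lay from 273608 to 289326 bases away. Sox18 (chr2:181404541-181406345, minus strand) had no start-site peak, and the nearest peak was 3936 bases from its start in ATAC6 and 3978 in ATAC5. The Sox7 peak was not among those of fold at least 5 or in the lists of equal length, and in both settings none of the 3 SOXF genes had a start-site peak.

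Of the receptors, Kdr (chr5:76328852-76374483, minus strand) had 1 peak in or within 50 kb of the gene, at its start and in ATAC5. It overlapped the first exon at chr5:76374296-76374525 and held 59 library reads and 22 Input reads, a fold of 4.59 (2.77 to 7.87), at rank 29114 of 31479. That rank is near the end of the list, and the fold was under the library's median of 10.9. In the other libraries the nearest peak to the first Kdr start was 107114 bases away in ATAC1 and between 194551 and 194859 bases away in the remaining 5. Tie1 (chr4:118143796-118162666, minus strand) had no start-site peak, and its nearest peak to the coding start was 23990 to 24115 bases away in ATAC2, ATAC5, ATAC6 and ATAC7 and 52520 to 52659 bases away in ATAC1, ATAC3 and ATAC4.

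The adhesion genes also lacked peaks at their main starts. Cdh5 (chr8:106625525-106668402, plus strand) had none, and the nearest peak was 24286 to 24307 bases away in ATAC1, ATAC2 and ATAC5. Pecam1 (chr11:106515531-106611942, minus strand) has 5 clustered coding starts between positions 106576260 and 106576708 with no peak centred within 1000 bases. Just beyond that limit, an intronic element centred 1042 bases from the nearest of these starts was called in ATAC2 with 49 library and 12 Input reads and in ATAC6 with 61 and 12. The start-site peaks counted for Pecam1 lay at its farthest upstream start, position 106611942, and were called in ATAC5. One held 76 library reads and 16 Input reads, a fold of 8.13 (4.70 to 14.9), and the other 56 and 7, a fold of 13.7 (6.23 to 35.6). Both overlap exons of the neighbouring gene Gm885 and are nearer to its start, 144 and 317 bases away, than to that of Pecam1, 431 and 957 bases away, so they cannot be assigned to either gene. With each peak given to the nearest start alone, an alternative chosen after seeing the data, Pecam1 had no start-site peak.

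Vwf (chr6:125496792-125636697, plus strand) had start-site peaks in 5 libraries, the most of the 10 genes, but none of them was at a start of a protein-coding transcript. They lay at the starts of a pair of processed transcripts inside the gene. At the first of these, position 125516269, peaks centred just inside the limit of 1000 bases upstream were called in ATAC1 with 106 library and 16 Input reads, a fold of 8.13 (4.79 to 14.8), and in ATAC4 with 82 and 13, a fold of 7.14 (3.95 to 13.98). At the other, position 125553568, a peak over a coding exon of Vwf was called in ATAC2 (62 and 19 reads, fold 5.15), ATAC4 (55 and 16, fold 3.89), ATAC5 (76 and 21, fold 6.196) and ATAC6 (58 and 23, fold 3.97). The folds at the exon had counting intervals that overlap one another, which is no test of a difference. With protein-coding transcripts alone, Vwf had no start-site peak, and the number of the 10 genes with one was 1 in ATAC1, 1 in ATAC2 and 0 in ATAC4.

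**Figure D3:**
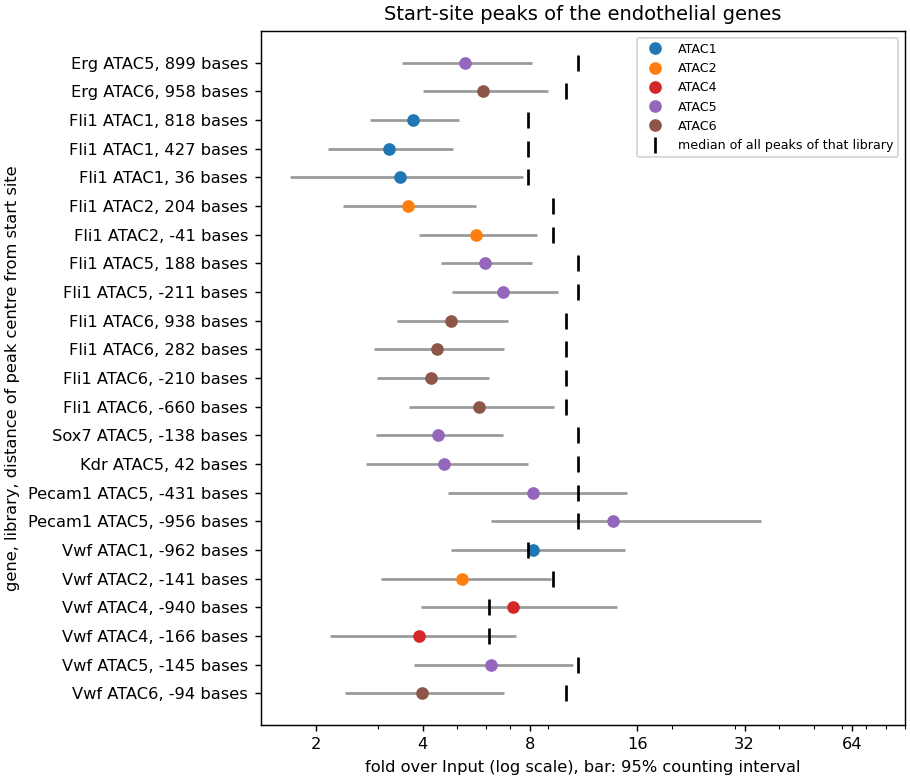
Fold over Input (horizontal axis, log scale) of each start-site peak of the 10 genes, labelled by gene, library and the distance of the peak centre from the start site (negative before the start). Points are the authors' folds, grey bars the 95% counting intervals, and black ticks the median fold of all peaks of that library. All 11 Fli1 peaks and those of Erg, Sox7 and Kdr sit to the left of their tick.

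In and within 50 kb of the 10 genes, 68 elements were found, an element being a set of peaks from any library that overlap by at least 1 base. Of these, 8 lay at start sites of the 10 genes, 16 at start sites of other genes, 24 elsewhere inside the genes and 20 in the flanks. The 44 elements of the last 2 kinds are called away from start sites, since they held no peak centred within 1000 bases of one. Some lay just past that limit, with a centre 1053 bases from a start in Fli1, 1042 in Pecam1 and 1247 in Vwf. Elements of this kind were present at 8 of the 10 genes, all but Sox17 and Kdr, where 66.1% of all protein-coding genes had one. Fli1 had 12, Erg 10, Vwf 9, Pecam1 5, Sox18 3, Tie1 and Cdh5 2 each and Sox7 1, while the median over all protein-coding genes was 1. The genes differ in length, from 1805 bases in Sox18 to 227425 in Erg, and the longest 3, Erg, Vwf and Fli1, had the most of these elements.

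By library, ATAC5 had a peak in 25 of the 44 elements, or 56.8%, beside 51.2% of all 30239 elements away from start sites. ATAC2 had 20 (45.5%, background 53.8%), ATAC6 18 (40.9%, background 44.6%) and ATAC1 17 (38.6%, background 31.2%). ATAC7 had 7 (15.9%, background 13%), ATAC3 5 (11.4%, background 12.5%) and ATAC4 1 (2.27%, background 11.5%). These shares lay near the background in 6 libraries, and ATAC4 had 1 element, in Vwf. Of the 44 elements, 20 were called in 1 library (45.5%, background 50.1%) and 1 in all 7 libraries (2.27%, background 3.91%). With each list shortened to 15188 peaks, 19 of these elements were found, and the matching count over all elements was not computed.

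The element called in all 7 libraries lay in an intron of Vwf at chr6:125522907-125523727, 20336 bases from the nearest coding start. ATAC1 had 172 library and 10 Input reads there (fold 21.1, interval 11.2 to 44.9), ATAC2 114 and 13 (fold 13.8), ATAC3 121 and 22 (fold 5.55, interval 3.50 to 9.18), ATAC5 213 and 14 (fold 26.0, interval 15.2 to 48.5) and ATAC7 88 and 8 (fold 12.1). ATAC4 had a pair of peaks with folds of 8.002 and 18.3, and ATAC6 a pair with folds of 12.3 and 20.6. The interval of ATAC3 did not overlap those of ATAC1 and ATAC5, but the peaks of different libraries cover different bases of the element and their reads were counted over different outer regions. It was the best-ranked element of Vwf away from starts, at rank 6085 of 24510 in ATAC1. Vwf thus had open chromatin in every library inside the gene while none was listed at its coding starts.

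In Fli1, the element in most libraries away from the start was in an intron at chr9:32316062-32316831, 32528 bases downstream of the start, and it was called in ATAC1, ATAC2, ATAC3, ATAC5 and ATAC6. ATAC1 had a pair of peaks there with 204 and 167 library reads and 18 and 20 Input reads, at folds of 13.9 and 10.3. ATAC2 had 69 library and 12 Input reads (fold 9.08), ATAC3 126 and 15 (fold 8.47), ATAC5 106 and 14 (fold 12.96) and ATAC6 41 and 5 (fold 12.9). The counting intervals of all 5 libraries overlap, which is no test of a difference. In ATAC3 the Fli1 start itself had no listed peak, and in ATAC4 and ATAC7 no element of Fli1 was called at all.

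Within Erg, a pair of intronic elements was called in ATAC2, ATAC5 and ATAC6. At chr16:95794835-95794984, 13291 bases downstream of the first start, ATAC2 had 205 library and 21 Input reads (fold 15.4), ATAC5 198 and 23 (fold 14.7) and ATAC6 169 and 16 (fold 16.6). At chr16:95620459-95620790, ATAC2 had 159 and 17 (fold 14.8), ATAC5 107 and 17 (fold 10.8) and ATAC6 143 and 17 (fold 13.2). ATAC2 therefore had both of these elements but no listed peak at the Erg start. The best-ranked element of Erg was in the downstream flank, at chr16:95562652-95563296, and was called in these 3 libraries and ATAC7, with 390 library and 52 Input reads in ATAC2 (fold 11.8). Erg had no element in ATAC3 and ATAC4.

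The most widely called elements of Fli1 and Vwf and an intronic one of Erg are shown, on the plus strand of mm9, as examples of the elements inside these genes. For Vwf and Fli1 the 300 bases around the centre of the element are given, and for Erg the whole element. Capitals mark matches to the ETS letters AGGAAG, the SOX letters ACAAT or the GATA letters AGATAA on either strand.
Vwf, chr6:125523167-125523466, plus strand: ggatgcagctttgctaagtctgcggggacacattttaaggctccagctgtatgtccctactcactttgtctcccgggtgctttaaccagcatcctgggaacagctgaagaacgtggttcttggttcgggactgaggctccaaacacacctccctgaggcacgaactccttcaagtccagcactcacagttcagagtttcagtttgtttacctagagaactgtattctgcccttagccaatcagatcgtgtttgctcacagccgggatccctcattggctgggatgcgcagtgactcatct
Fli1, chr9:32316296-32316595, plus strand: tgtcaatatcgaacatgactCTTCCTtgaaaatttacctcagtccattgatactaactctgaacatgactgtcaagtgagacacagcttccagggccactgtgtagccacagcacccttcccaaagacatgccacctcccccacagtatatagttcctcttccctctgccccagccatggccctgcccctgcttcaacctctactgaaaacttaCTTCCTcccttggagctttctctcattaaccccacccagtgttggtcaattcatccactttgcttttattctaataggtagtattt
Erg, chr16:95794835-95794984, plus strand: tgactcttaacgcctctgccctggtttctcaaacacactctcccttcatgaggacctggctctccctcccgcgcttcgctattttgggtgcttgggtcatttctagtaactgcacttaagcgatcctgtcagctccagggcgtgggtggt
The Fli1 stretch held 2 matches to the ETS letters and that of Vwf held none of the 3 motifs. The Erg element, which is 150 bases long, held none, and the 300 bases around its centre held 1 match to the SOX letters. Over the 300 bases around the centre of each of the 44 elements, 38.6% held the ETS letters, 27.3% the SOX letters and 6.82% the GATA letters, beside 40.8%, 29.2% and 10.7% of all elements away from start sites. In the windows at the 25 coding starts, 44% held the ETS letters, 44% the SOX letters and 20% the GATA letters, beside 34.0%, 26.8% and 9.44% of all protein-coding starts, and several of the 25 windows share bases. None of the 3 motifs contains another, and a match is no evidence of binding.

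**Figure D4:**
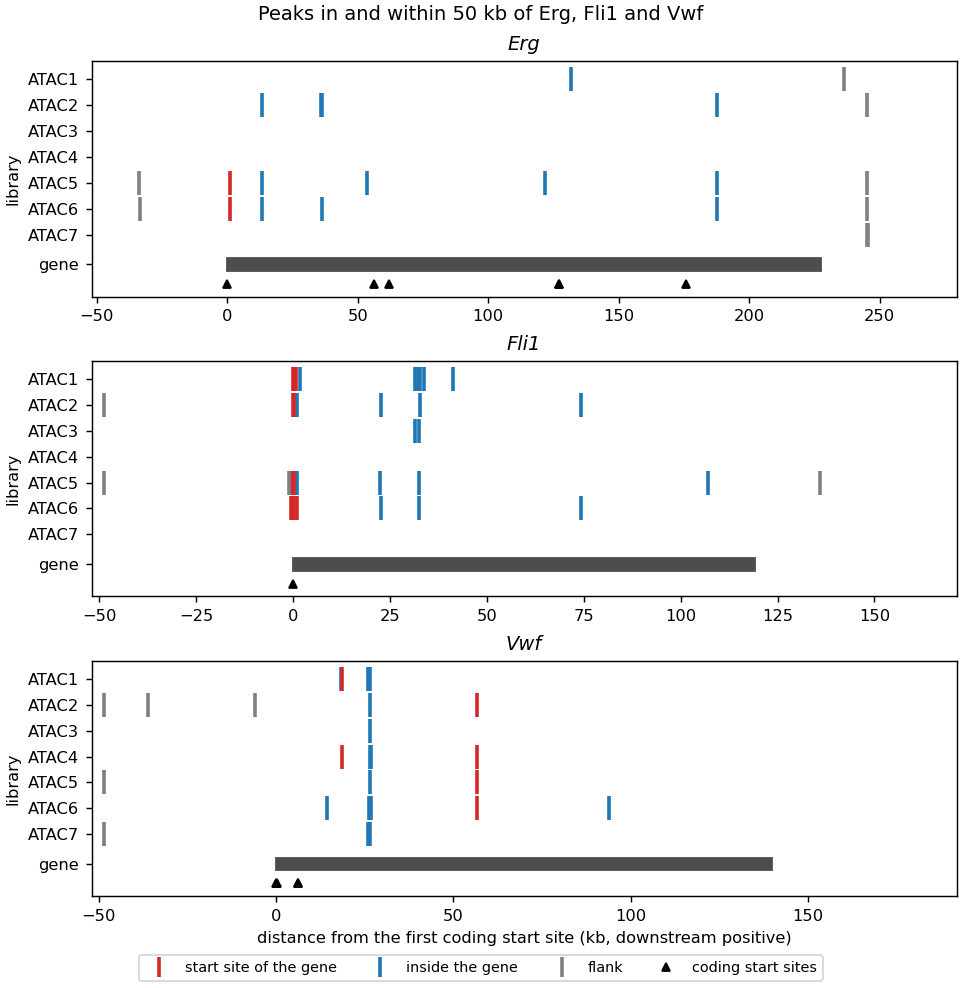
Peaks in and within 50 kb of Erg, Fli1 and Vwf in each library, by distance from the first coding start (horizontal axis, kb, downstream positive). Red ticks are elements at start sites of the gene, blue ticks lie elsewhere inside it, grey ticks in the flanks, the dark bar is the gene and triangles are coding starts. The Vwf element near 26 kb is present in all 7 libraries, and Erg has no tick in ATAC3 and ATAC4.

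Sox18 had 2 flanking elements in 5 libraries. The best ranked, at chr2:181413619-181413776, was called in ATAC1 (90 library and 5 Input reads, fold 22.1), ATAC2 (119 and 6, fold 31.3), ATAC5 (160 and 9, fold 30.4), ATAC6 (121 and 8, fold 23.8) and ATAC7 (95 and 4, fold 26.2). It lies 1318 bases from the start of the neighbouring gene Tcea2, so it stands close to another promoter. The other, at chr2:181394053-181394697 on the far side of the gene, was called in ATAC1, ATAC2, ATAC3, ATAC5 and ATAC6, with folds of 5.66 in ATAC3 to 21.1 in ATAC5. Sox7 had 1 element away from its start, at chr14:64581489-64581854 beyond the end of the gene, in ATAC1 (70 library and 14 Input reads, fold 6.14), ATAC5 (165 and 15, fold 18.8) and ATAC7 (98 and 14, fold 7.72). The ATAC5 interval for it, 11.1 to 34.4, overlapped those of ATAC1, 3.43 to 11.8, and ATAC7, 4.39 to 14.7. These intervals share the Input library, so their overlap does not show that the libraries agree.

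The flank of Tie1 held 2 elements away from starts, of which 1 is described. It lay at chr4:118138363-118138676 between genes and was called in ATAC2 (145 library and 8 Input reads, fold 28.6), ATAC5 (116 and 11, fold 18.0), ATAC6 (94 and 10, fold 14.8) and ATAC7 (80 and 11, fold 8.02). For Cdh5, an element 24418 bases upstream at chr8:106600976-106601239 was called in ATAC1 (45 and 6 reads, fold 9.20), ATAC2 (67 and 7, fold 15.1) and ATAC5 (61 and 8, fold 13.04). An intronic element of Cdh5 at chr8:106651242-106651543 was called in ATAC1 (59 and 9 reads, fold 8.05) and ATAC5 (50 and 12, fold 7.13). Of the Pecam1 elements away from start sites, the best ranked lay in an intron of Gm885, at chr11:106623575-106624059, in ATAC1, ATAC3 and ATAC5, with folds of 4.79 in ATAC3 to 5.73 in ATAC5.

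Other genes of the endothelial programme were counted in the same way, beside 56.8% of all protein-coding genes in at least 1 library, 36.9% in all and 42.1% to 52.8% per library. Of 24 further receptor and surface genes, 7 had a start-site peak in at least 1 library and 3 in all 7, with 3 to 7 per library. Efnb2, Notch4 and S1pr1 were the 3 in all libraries and Ephb4 was called in 6, and other cell types also use Efnb2, S1pr1 and Ephb4. Gja4 was called in ATAC2, ATAC5 and ATAC6, Esam in ATAC2 and ATAC5, and Egfl7 in ATAC5 and ATAC6. Tek, which encodes the angiopoietin receptor, and Flt1 and Flt4, which encode VEGF receptors, had none, as had 17 of the 24 genes in all. Of 16 further transcription factor genes, 14 had a start-site peak in at least 1 library and 6 in all. Per library there were 8 to 13, led by Klf2, Ets1, Hey2 and Hey1. The counts of these lists and their background are not split by CpG ratio. Of 7 ligand genes of the VEGF and angiopoietin families, 4 had one, Vegfa and Vegfc in all libraries, Vegfb in 4 and Angpt1 in 3. The patterns over libraries recurred among the listed genes. Egfl7, which encodes a vessel-secreted protein, and Gata2 had the pattern of Erg, ATAC5 and ATAC6, which was held by 165 protein-coding genes. Nr2f2, Vegfb and Runx2 had that of Fli1, held by 320 genes, Tal1 had that of Vwf, held by 172, and Cd79a, Twist2 and Mcam were called in ATAC5 alone, as were Sox7, Kdr, Pecam1 and 299 genes in all. For Pecam1 this pattern depends on the window, since its intronic element added ATAC2 and ATAC6 with a window of 2000 bases.

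Markers of other cells were counted in the same libraries, where the shares of all protein-coding genes were 49.1%, 50.3%, 43.6%, 43.8%, 52.8%, 51.7% and 42.1% in ATAC1 to ATAC7. Of 20 haematopoietic genes, a start-site peak was called at 13 in ATAC1, 12 in ATAC3 and ATAC5, 7 in ATAC4 and ATAC6 and 4 in ATAC2 and ATAC7, led by Spi1 (annotated as Sfpi1), Ikzf1, Cd53 and Lcp1. Ptprc, which encodes CD45, was called in 4 libraries, ATAC1, ATAC3, ATAC5 and ATAC7, although cells with CD45 were gated out. Of 10 megakaryocyte and platelet genes, cells that make Vwf as endothelium does, 2 were called in every library, Nfe2 and Itga2b, and the other 8 in none. Of 20 stromal genes, 11 were called in ATAC5, 10 in ATAC2, 9 in ATAC6, 8 in ATAC7, 7 in ATAC1, 5 in ATAC3 and 4 in ATAC4, with Foxc1, Ebf3, Twist1 and Col1a1 in 6 or 7 libraries. The other end of the stromal list held 8 genes called in no library, among them Ly6a, which encodes the sort marker Sca-1, Lepr and Prrx1. Pdgfra, which encodes the sort marker PDGFR-alpha, was called in 5 libraries but not in ATAC1 and ATAC3. Of 10 genes of mural cells, which wrap vessels, 4 were called in ATAC5, 2 in ATAC2, 1 in ATAC1 and 0 in the others, with Acta2, Kcnj8, Cspg4 and Mcam as the 4. ATAC5 had the highest or joint second-highest count on the endothelial, haematopoietic, stromal and mural lists and also the highest share over all protein-coding genes, and the part of other cell types in its start-site peaks at the 10 genes was not tested.

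**Figure D5:**
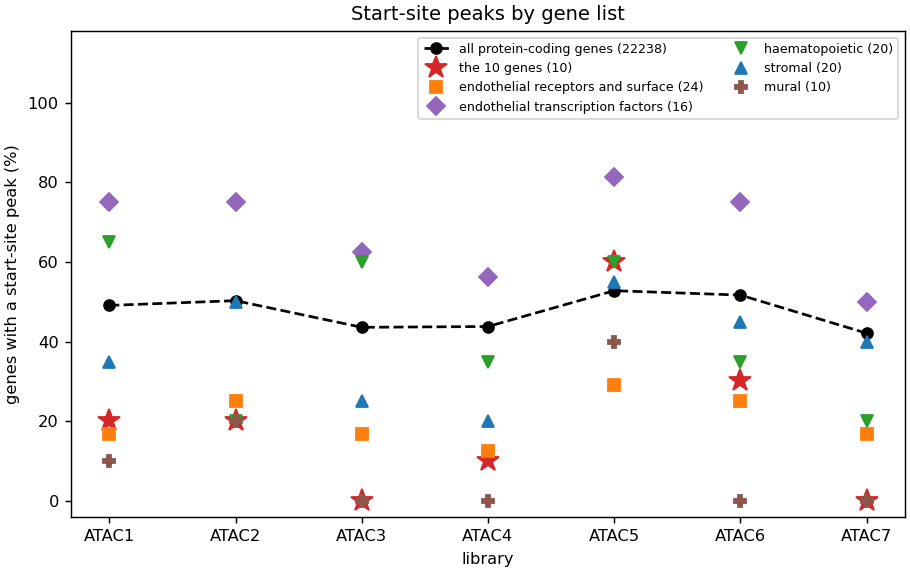
Share of genes with a start-site peak (vertical axis, percent) in each library, for the 10 genes (red stars), 5 other lists and all 22238 protein-coding genes (dashed line). The 10 genes lie above the dashed line in ATAC5 and below it in the other 6 libraries, and the endothelial transcription factors lie above it in all 7.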

How the data were processed

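Only the 7 peak tables, 1 per library, were analysed, and Input enters as a column of them. The extract protocol in the labels names an RNA library kit, and the assay is taken from the titles and the study's methods. The authors used bowtie to align reads to mm9 and called each library's peaks against Input in CisGenome's two-sample mode (p-value limit 1e-05, FDR under 0.01). Whether reads were shifted for Tn5 or filtered for duplicates is not given in the sources used here, and peak bounds could be off by several bases if no shift was made. The deposited counts are reads from the library and from Input over an outer region around each peak. The deposited fold is a ratio, a scale factor of 1.01 to 1.71 times library reads over Input reads plus 0.01. The authors' ranking statistic is a signal value without a stated scale. Sequencing depth is not given, and the lowest library reads of a listed peak were 21 to 28.

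Peaks were assigned to start sites within 1000 bases of their centre and to genes with 50 kb flanks, and overlapping peaks were merged into elements. Counting intervals at 95% (exact Poisson, conditional on the total for folds) cover counting error only. The folds of all libraries use reads of the same Input library. Their intervals are therefore not independent, and whether they overlap is no test of a difference. Python 3.11.15, pandas 2.3.3, scipy 1.17.1, bedtools 2.31.1 and samtools 1.23.1 were used. On simulated peaks the assignment recovered 200 of 200 planted inside the window and 0 of 200 outside it. The 10 genes and all lists were chosen with earlier results of these data known. Elements were named when at a start site of the 10 genes. Those away from start sites were named when called in at least 5 libraries or best ranked for a gene, except at Tie1. Elements at starts of other genes were not named. Other genes were named for sharing the pattern of a member called in 1 to 6 libraries or, up to 4 per list, for most libraries. The intronic elements of Erg, Cdh5 and Pecam1 and the Tie1 element were chosen after their values were seen. The same holds for Gja4, Esam, Pdgfra, Ptprc and the list genes named as lacking a peak. A further Tie1 element and some sequences are not reported here.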

Additional observations from a re-analysis of the deposited data

How the results depend on the processing

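No paired analysis was possible because the titles have 1 library each, and no result comes from a test. Of 82 values recomputed under other settings, 65 stayed within 1.5 times and 17 moved. With peaks of fold at least 5, ATAC1 had 1 of the 10 genes, ATAC5 4 and ATAC6 2, and Sox7 and Kdr lost their only call, which left 4 genes in at least 1 library. With lists of equal length (15188 peaks), ATAC1 had 1, ATAC2 0, ATAC5 1 and ATAC6 1, with 2 genes in at least 1 library, Erg and Vwf, and 37 elements in all, 19 away from starts and 7 of these in 1 library. The shorter lists remove lower-ranked peaks by construction. With a window of 500 bases ATAC1 had 1 gene, ATAC5 5 and ATAC6 2, and Erg lost both of its calls, which left 5 genes. With protein-coding transcripts only, ATAC1 had 1, ATAC2 1, ATAC4 0, ATAC5 5 and ATAC6 2, since all Vwf peaks lay at other transcripts. With each peak given to the nearest start, chosen after seeing the data, ATAC5 had 5, without Pecam1. With a window of 2000 bases or the outer region, Pecam1 also had ATAC2 and ATAC6, and ATAC6 had 4 genes. Flanks of 10 kb gave 44 elements, and flanks of 100 kb gave 112, with 79 away from starts and 34 of these in 1 library. The absence of a listed peak does not exclude accessibility below the authors' limit.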
